A study of Mus musculus with 37 samples.

Results

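Embryonic stem (ES) cell genomes were placed into mouse zygotes in interphase, and the resulting nuclear transfer (NT) embryos were compared with embryos left without any genome. The comparison rested on 4 of the 37 samples of the series, chosen by their labels: 2 ES interphase NT samples and 2 genome-less samples. 1 of each was measured on each of the pair of Illumina bead array versions that the study used, called here the first version (22 arrays) and the second version (15 arrays). The ES interphase NT embryos were made from interphase zygotes as recipients and ES cells in interphase as nuclear donors. The first-version sample was taken 1 d after transfer, and the second-version sample is labelled a biological duplicate with no time given. The genome-less embryos had developed for 1 d without a genome, carry a 2-cell stage label, and are not stated to be duplicates of each other. All were cultured in KSOM. The other arrays used as reference points were 2-cell control embryos on both versions (on the second as repeat hybridizations of first-version RNA), M phase zygotes on the first version and MII oocytes on the second. The mouse strain, the ES line and its genotype, and the number of embryos pooled per array were not given in the sources used here. Because a genome-less embryo holds only cytoplasm, setting the NT embryos against it asks which transcripts were there beyond those of the cytoplasm. Any RNA made before its own genome was removed would be part of that cytoplasm. RNA made after transfer and RNA carried in with the ES cell cannot be told apart, since no array of ES cells alone was analysed here.

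The mouse egg is loaded with maternal mRNA and is transcriptionally silent at ovulation. After fertilization, zygotic genome activation starts transcription from the embryo's own genome, with a main wave at the 2-cell stage, while much of the maternal mRNA is degraded, in part by factors that the new genome must supply. Genes that normally appear at this step, such as those of ribosome biogenesis, and maternal genes that normally disappear therefore give separate readouts of whether a transplanted genome is active.

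Each of the 4 samples stood alone in its group and version, so the spread within these groups was not measured and their differences are described without a test, except for a fit that borrows the spread of other groups. The versions were normalized separately. The first-version pair was dim. The ES interphase NT array detected 20.8% and the genome-less array 18.8% of 24613 probes, against 30.7 to 45.7% on the other 20 arrays of that version, and the 75th percentile of the unnormalized signal was 23.5 and 24.0 units, against 35.1 to 152 units. On the second version the ES interphase NT array detected 37.9% and the genome-less array 36.1% of 25697 probes, inside the 33.8 to 44.0% of the other 13 arrays. Both arrays of a pair lay on 1 slide, so the slide did not separate the groups. Levels below are normalized log2 signals, and a gene is called detected where its detection p-value was below 0.05. In embryo pools, fewer cells and less RNA per cell cannot be told apart.

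Many genes differed between the ES interphase NT and genome-less samples within each version, but few did so in the same direction on both. With detection required on the brighter array, 1041 of 8244 genes (12.6%) were at least 2-fold higher and 849 (10.3%) at least 2-fold lower in ES interphase NT on the first version. The second version had 1248 of 7181 genes (17.4%) higher and 1136 (15.8%) lower in ES interphase NT. Of 6592 genes measured on both versions, 238 (3.61%) were higher on both, 166 (2.52%) were lower on both and 197 (2.99%) lay in opposite directions. From the authors' series matrix values the split was 333 higher and 146 lower. Thus 404 genes lay on the same side on both versions and 197 on opposite sides. By fold alone, 63.2% of the genes past 2-fold on both versions had the same sign, and the differences had a Pearson correlation across genes of 0.100 (Spearman 0.108, n = 6592 genes, which are not independent replicates). For 2-cell control minus cleavage-inhibited embryos, whose RNA was hybridized to both versions, the same measures were 99.5% and 0.670. That comparison used the same RNA on both versions, whereas the ES interphase NT samples were biological duplicates.

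**Figure D1:**
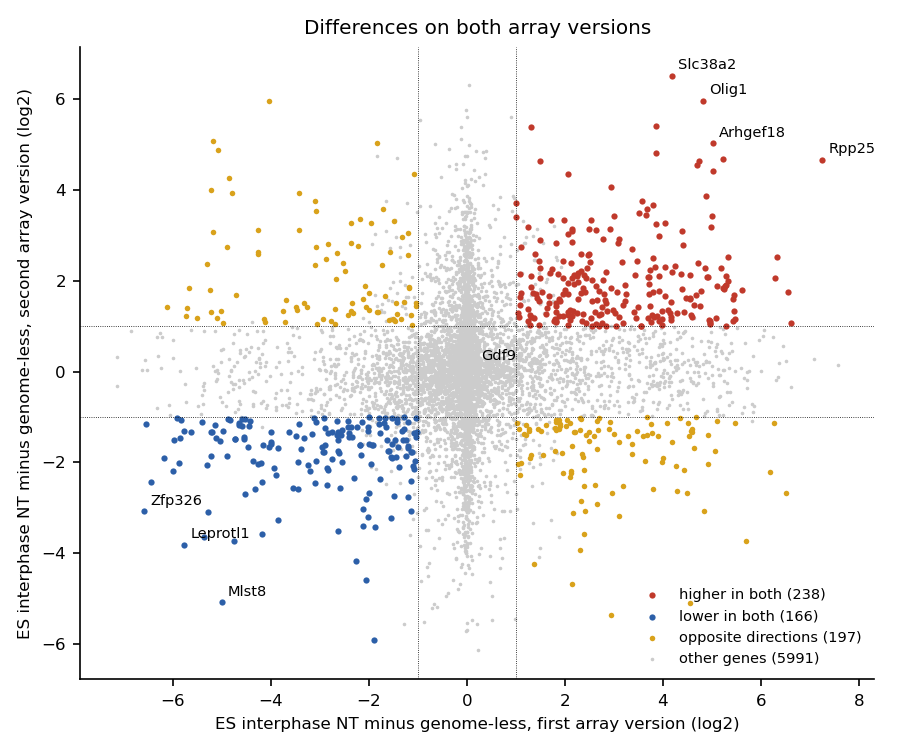
Each point is 1 of 6592 genes, placed by ES interphase NT minus genome-less (log2) on the first version (x axis) and on the second (y axis), with dotted lines at 1 log2 either side of 0. Genes higher in both (238) and lower in both (166) are set beside 197 genes with opposite directions, and by fold alone 2960 genes were 2-fold apart on 1 version only.

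The share of all genes 2-fold apart was at the upper end of the spread between replicates or above it. On the first version 29.6% of genes were 2-fold apart between the ES interphase NT and genome-less arrays, against 0.230 to 29.5% in 13 pairs of replicate arrays, the highest being the anaphase NT pair. The share on the second version was 34.1%, against 4.08 to 22.7% in 6 replicate pairs. The expression profile of the ES interphase NT sample was nevertheless most like that of the genome-less sample on both versions, among the groups measured there. Across genes their correlation was 0.692 on the first version, and the ES interphase NT sample correlated at 0.581 to 0.629 with M phase zygotes and at 0.489 with both 2-cell controls. Anaphase NT embryos came closest after the genome-less sample there, at 0.596 to 0.658. The compared pair shared a slide and, on the first version, a dim signal, and their part in the similarity was not tested. The correlation was 0.875 on the second version, where ES interphase NT correlated at 0.794 to 0.807 with MII oocytes and at 0.540 to 0.553 with 2-cell controls. Between versions, the ES interphase NT samples correlated at 0.608 with each other and the genome-less samples at 0.569. Across groups, first-version ES interphase NT correlated at 0.584 with second-version genome-less, and first-version genome-less at 0.552 with second-version ES interphase NT. For 2-cell control RNA hybridized to both versions the correlation was 0.970 and 0.974.

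As a measure of genome activation, genes were taken that differ between 2-cell controls and M phase zygotes on the first version, in arrays that enter no part of the ES interphase NT comparison. By limma (Benjamini-Hochberg adjusted p below 0.05 and at least 2-fold), 1439 of 8244 genes (17.5%) were higher and 1561 (18.9%) lower in 2-cell controls. The genes that rise in normal embryos, called the activation set, were not higher as a group in ES interphase NT. Their median difference between ES interphase NT and genome-less was -0.0014 log2 on the first version, beside -0.016 for all genes, and 0.022 log2 on the second, beside 0.021 for all genes. In pairs of replicate arrays the same median reached 0.19 and 0.13 log2. Their median level on the second version was 6.89 log2 in ES interphase NT and 6.86 in genome-less embryos, against 10.51 and 10.56 in 2-cell controls and 6.98 and 7.16 in MII oocytes. Both groups thus sat near the level of the oocyte and far below that of the 2-cell embryo. The set was chosen for high levels in 2-cell controls against M phase zygotes on the first version. The second-version 2-cell arrays held the same RNA. The 2-cell levels and detection counts, and the first-version zygote ones, thus follow from the choice and serve only as a scale. The MII oocyte arrays took no part in it. The first version gave 4.75 in ES interphase NT and 4.60 in genome-less embryos, against 8.02 and 8.06 in 2-cell controls and 5.16 to 5.35 in M phase zygotes. Of the 1414 activation genes measured on both versions, 67 (4.74%) were higher on both, 40 (2.83%) lower on both and 49 opposite, and these shares were near the 3.61%, 2.52% and 2.99% of all genes. Detected members numbered 829 in ES interphase NT and 788 in genome-less embryos on the second version, against 1402 and 1407 in 2-cell controls and 797 and 801 in MII oocytes. On the first version they numbered 457 of 1439 in ES interphase NT and 381 in genome-less embryos (187 in ES interphase NT only and 111 in genome-less embryos only), against 1435 and 1436 in 2-cell controls and 938 to 973 in M phase zygotes.

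The genes that fall in normal embryos, called the decay set, were still present in both groups on the second version. Their median level there was 9.99 log2 in ES interphase NT and 9.87 in genome-less embryos, against 7.29 and 7.34 in 2-cell controls and 9.80 and 9.92 in MII oocytes. The median difference between ES interphase NT and genome-less was 0.12 log2, against at most 0.058 in pairs of replicate arrays, and it ran from -0.042 to 0.29 over the alternatives tried. Of 1476 members, 1339 were detected in ES interphase NT and 1254 in genome-less embryos, against 1011 and 1041 in 2-cell controls and 1260 and 1314 in MII oocytes. On the dimmer first version the median level was 6.20 in ES interphase NT and 5.61 in genome-less embryos, against 5.41 and 5.50 in 2-cell controls and 7.98 to 8.04 in M phase zygotes, with a median difference of 0.018 log2. There, 773 of 1561 members were detected in ES interphase NT and 654 in genome-less embryos, so the low medians came with a low number of detected genes. For the decay set too, the levels in 2-cell controls and M phase zygotes follow from how it was chosen. Higher on both versions were 86 members (5.83%, beside 3.61% of all genes) and lower 50 (3.39%, beside 2.52%), with 63 opposite. Across all genes, the ES interphase NT minus genome-less difference did not follow normal development. Its correlation with 2-cell control minus M phase zygote was -0.025 on the first version (n = 8244 genes), and with 4-cell control minus MII oocyte 0.028 on the second (n = 7181 genes).

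**Figure D2:**
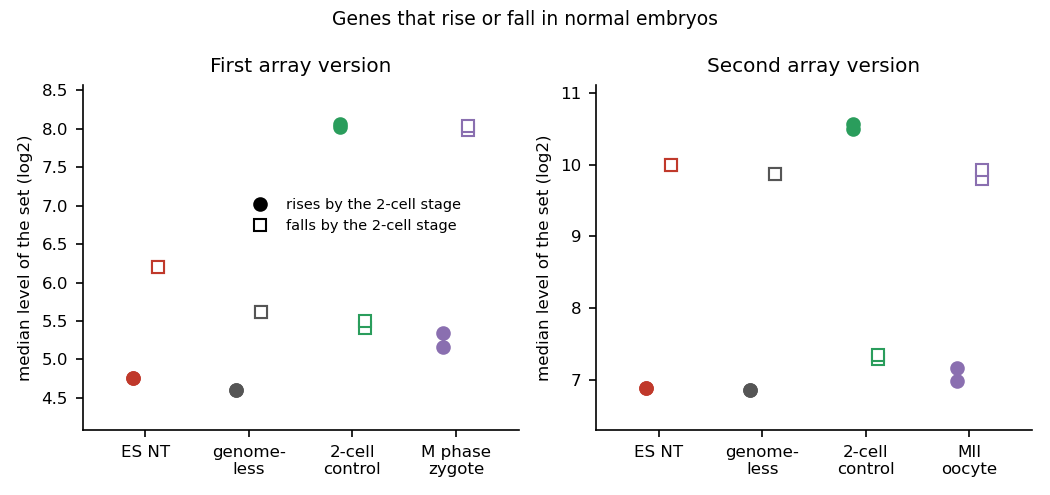
Median level (log2) of the activation set (filled circles) and the decay set (open squares) on each version, with the lowest and highest array of groups with several arrays. For the activation set, ES NT and genome-less embryos lie together near the level of M phase zygotes or MII oocytes, at 6.89 and 6.86 on the second version. The decay set stays at the MII oocyte level there.

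Genes above an earlier stage were then counted in each group with the same rule, detected and at least 2-fold above M phase zygotes on the first version and above MII oocytes on the second. These are called here the unactivated stage because they come before the main wave of activation. Whether the M phase zygotes already held RNA made by their own genome was not tested. The ES interphase NT samples had 365 such genes and the genome-less samples 388, of 6592, and both counts share their zygote and oocyte arrays. The 2-cell controls had 1259 by fold alone. Within the activation set, 91 of 1414 members passed in ES interphase NT and 82 in genome-less embryos. An embryo without a genome, which cannot transcribe, thus gave about as many genes above the earlier stage as the embryo with an ES genome. Of the 238 genes higher in ES interphase NT on both versions, 49 were also above the unactivated stage in ES interphase NT, and 22 of these belonged to the activation set. Of the 166 lower genes, 70 were above the unactivated stage in genome-less embryos, 12 of them in the activation set. The activation set held 1414 of all 6592 genes, beside 22 of these 49 and 12 of these 70. It was chosen against the same M phase zygote arrays that enter the rule, so its share here is not independent of the rule. This count was added after the data were seen.

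Of the 49 genes that were higher in ES interphase NT than in genome-less embryos and than at the unactivated stage, 40 had a promoter in the RefSeq table (GRCm38.p6), and 34 had a single one. The 250 bases before the start of the first 5 of these, ranked by the smaller of their differences on the pair of versions, are given 5′ to 3′ on the gene's strand, as examples of genes far apart on both versions. Olig1, Ly96 and Rabggtb rank among them and are not shown. Capitals mark matches on either strand to the TATA box letters TATAAA, the CCAAT box CCAAT, the GC box GGGCGG, the octamer ATGCAAAT bound by Pou factors, and TAATCC, bound by paired-like homeodomain factors. They lie at Rpp25, chr9:57503852-57504101 (+), Coro1c, chr5:113908707-113908956 (-), Ankmy2, chr12:36156874-36157123 (+), Slc38a2, chr15:96699729-96699978 (-) and Sox21, chr14:118237031-118237280 (-).
Rpp25: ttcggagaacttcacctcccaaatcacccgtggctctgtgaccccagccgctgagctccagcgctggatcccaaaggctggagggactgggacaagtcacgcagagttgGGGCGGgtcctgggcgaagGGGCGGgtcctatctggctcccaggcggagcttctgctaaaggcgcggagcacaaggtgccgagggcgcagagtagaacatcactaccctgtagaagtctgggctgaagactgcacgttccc
Coro1c: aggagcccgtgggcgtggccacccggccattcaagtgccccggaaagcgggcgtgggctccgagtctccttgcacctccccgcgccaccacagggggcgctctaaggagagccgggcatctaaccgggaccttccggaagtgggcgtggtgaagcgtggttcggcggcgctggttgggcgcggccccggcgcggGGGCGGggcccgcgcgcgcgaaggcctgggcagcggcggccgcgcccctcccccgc
Ankmy2: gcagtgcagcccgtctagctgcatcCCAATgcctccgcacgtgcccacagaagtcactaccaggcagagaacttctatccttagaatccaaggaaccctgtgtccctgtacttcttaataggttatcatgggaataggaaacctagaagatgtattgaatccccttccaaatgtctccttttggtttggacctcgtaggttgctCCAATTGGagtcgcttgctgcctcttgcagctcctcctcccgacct
Slc38a2: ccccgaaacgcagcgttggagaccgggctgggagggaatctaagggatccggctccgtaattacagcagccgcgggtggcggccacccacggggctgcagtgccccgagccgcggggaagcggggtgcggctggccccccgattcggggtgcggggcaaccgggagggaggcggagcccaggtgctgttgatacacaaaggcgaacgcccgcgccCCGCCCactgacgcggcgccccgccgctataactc
Sox21: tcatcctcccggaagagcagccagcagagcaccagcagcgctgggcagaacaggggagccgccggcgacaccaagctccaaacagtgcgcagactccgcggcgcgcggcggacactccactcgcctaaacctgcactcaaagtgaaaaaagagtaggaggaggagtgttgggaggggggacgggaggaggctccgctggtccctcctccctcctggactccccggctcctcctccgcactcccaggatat
Rpp25 held 2 GC box matches, at 141 and 122 bases before the start, Coro1c held 1 at 56 bases, and Slc38a2 held 1 on the opposite strand at 35 bases. Ankmy2 held 3 CCAAT matches, at 225, 46 and 43 bases, the last on the opposite strand and overlapping its neighbour. Sox21 held no match. Among the 32851 promoters of the table cut to the same length, 32.7% hold GGGCGG, 33.8% CCAAT, 12.4% TATAAA, 6.3% TAATCC and 1.6% ATGCAAAT. The matches describe letters only. GC content was 62.4% in Rpp25, 76.8% in Coro1c, 50.8% in Ankmy2, 72.0% in Slc38a2 and 65.2% in Sox21, against a median of 52.4% over all promoters.

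Where only the brighter array of a pair detected a gene, its difference is given as a bound, the bright level over the higher of the lowest detected level on the dim array and the dim probe's own level. Rpp25, a protein subunit of the RNase P and RNase MRP complexes that process tRNA and rRNA, had a level of 11.47 log2 in ES interphase NT and 4.22 in genome-less embryos on the first version, against 9.02 in 2-cell controls and 6.21 in M phase zygotes (means). On the second version it had 9.72 in ES interphase NT and 5.05 in genome-less embryos, against 11.43 in 2-cell controls and 5.82 in MII oocytes. It was thus at least 30.8-fold and at least 10.4-fold higher in ES interphase NT than in genome-less embryos, which did not detect it. The replicate SD of its level in the other groups was 0.29 and 0.42 log2. These sizes depend on the normalization. Without background correction the second-version differences were 2.47 log2 for Rpp25, 2.47 for Ly96, 3.45 for Coro1c and 2.61 for Ankmy2, and with the pair of arrays normalized alone the first-version differences were 4.22, 1.69, 1.91 and 1.81 log2 in the same order. Ly96, the co-receptor MD-2 of Toll-like receptor 4, had 9.45 in ES interphase NT and 4.22 in genome-less embryos on the first version, and 9.65 in ES interphase NT and 4.97 in genome-less embryos on the second, at least 7.56-fold and 9.95-fold higher. Coro1c, an actin-binding coronin, had 9.72 in ES interphase NT and 4.98 in genome-less embryos, where it was not detected. Both second-version arrays detected it, at 11.59 in ES interphase NT and 6.96 in genome-less embryos, a difference of 4.63 log2. All of these genes belong to the activation set. On the first version their ES interphase NT levels were above those of 2-cell controls (9.23 for Ly96 and 9.54 for Coro1c), and on the second they were below them (11.86 for Ly96 and 13.02 for Coro1c).

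Ankmy2, an ankyrin repeat and zinc finger protein, and Sox21, a transcription factor of the SoxB family, showed the same order. Ankmy2 had 9.61 log2 in ES interphase NT and 4.59 in genome-less embryos on the first version, and 10.27 in ES interphase NT and 5.85 in genome-less embryos on the second, at least 8.46-fold and 15.4-fold higher. Sox21 had 8.42 in ES interphase NT and 4.76 in genome-less embryos on the first version, against 9.79 in 2-cell controls and 4.32 in M phase zygotes. On the second it had 9.24 in ES interphase NT and 5.79 in genome-less embryos, against 12.57 in 2-cell controls and 6.01 in MII oocytes. The Sox21 differences were at least 3.72-fold and 7.52-fold, and the genome-less arrays did not detect it. With the pair of arrays normalized alone the first-version difference of Sox21 was 0.71 log2, short of 2-fold. Its replicate SD was 0.08 log2 on the first version and 1.58 on the second. Rabggtb, the beta subunit of the enzyme that prenylates Rab GTPases, was at least 3.34-fold higher on the first version and 3.67 log2 higher on the second, where both arrays detected it. Its first-version difference was 0.65 log2 with the pair normalized alone, also short of 2-fold.

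Other genes were high in ES interphase NT and had means near background in the 2-cell controls, M phase zygotes and MII oocytes, though single arrays detected some of them. Olig1, a basic helix-loop-helix transcription factor of the oligodendrocyte lineage, had 9.09 log2 in ES interphase NT and 4.27 in genome-less embryos on the first version, and 10.97 in ES interphase NT and 5.01 in genome-less embryos on the second. It was at least 5.89-fold and 25.0-fold higher, and the 2-cell controls had 4.27 and 4.89 on the first and second versions, the M phase zygotes 4.33 and the MII oocytes 5.63, with no array of these groups detecting it. However, 2 cleavage-inhibited control arrays of the first version detected Olig1, with a mean of 5.68. Slc38a2, a neutral amino acid transporter, had 8.40 in ES interphase NT and 4.22 in genome-less embryos on the first version, and 11.89 in ES interphase NT and 5.38 in genome-less embryos on the second, at least 3.67-fold and 47.0-fold higher. On the first version 1 M phase zygote array and 1 cleavage-inhibited control array detected it. With the pair normalized alone, the first-version difference was 1.30 log2 for Olig1 and 0.79 for Slc38a2, and without background correction the second-version difference was 3.61 log2 for Olig1 and 4.30 for Slc38a2. Zfp36l1, an RNA-binding protein that promotes mRNA decay, was at least 4.56-fold higher in ES interphase NT on the first version and 3.28 log2 higher on the second, where the genome-less array also detected it. First-version arrays that detected Zfp36l1 included 1 M phase zygote and 2 interphase zygote arrays, and 1 MII oocyte array did on the second. With the pair normalized alone its first-version difference was 0.90 log2, short of 2-fold.

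A further group of genes higher on both versions was already present in the egg. Arhgef18, a guanine nucleotide exchange factor, had the largest smaller difference of the pair of versions among the 238 genes. It had 9.31 log2 in ES interphase NT and 4.29 in genome-less embryos on the first version, and 12.37 in ES interphase NT and 7.34 in genome-less embryos on the second, against 8.53 in M phase zygotes and 7.16 in MII oocytes. The difference was at least 6.86-fold on the first version and 5.03 log2 on the second. Mcm5, a subunit of the replicative helicase, had 9.12 in ES interphase NT and 4.24 in genome-less embryos on the first version, and 9.28 in ES interphase NT and 5.41 in genome-less embryos on the second, against 10.38 in M phase zygotes and 12.25 in MII oocytes. ES interphase NT was thus below the egg level of Mcm5, and the genome-less arrays did not detect it (at least 6.02-fold and 7.72-fold higher in ES interphase NT). The decay set members Rbm4 (an RNA-binding splicing regulator), Acp6 (a lysophosphatidic acid phosphatase), Slc35c1 (the GDP-fucose transporter) and Tbc1d7 (a subunit of the TSC complex) were detected in ES interphase NT and in no genome-less sample. On the second version Rbm4 was at least 11.8-fold, Acp6 at least 15.9-fold, Slc35c1 at least 11.1-fold and Tbc1d7 at least 10.3-fold higher in ES interphase NT. The bounds on the first version were 5.40-fold for Rbm4, 3.04-fold for Acp6, 3.15-fold for Slc35c1 and 2.70-fold for Tbc1d7. With the pair of arrays normalized alone, the first-version differences of Acp6 (0.62 log2), Slc35c1 (0.62) and Tbc1d7 (0.56) fell short of 2-fold. That of Rbm4 was then 1.18 log2.

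**Figure D3:**
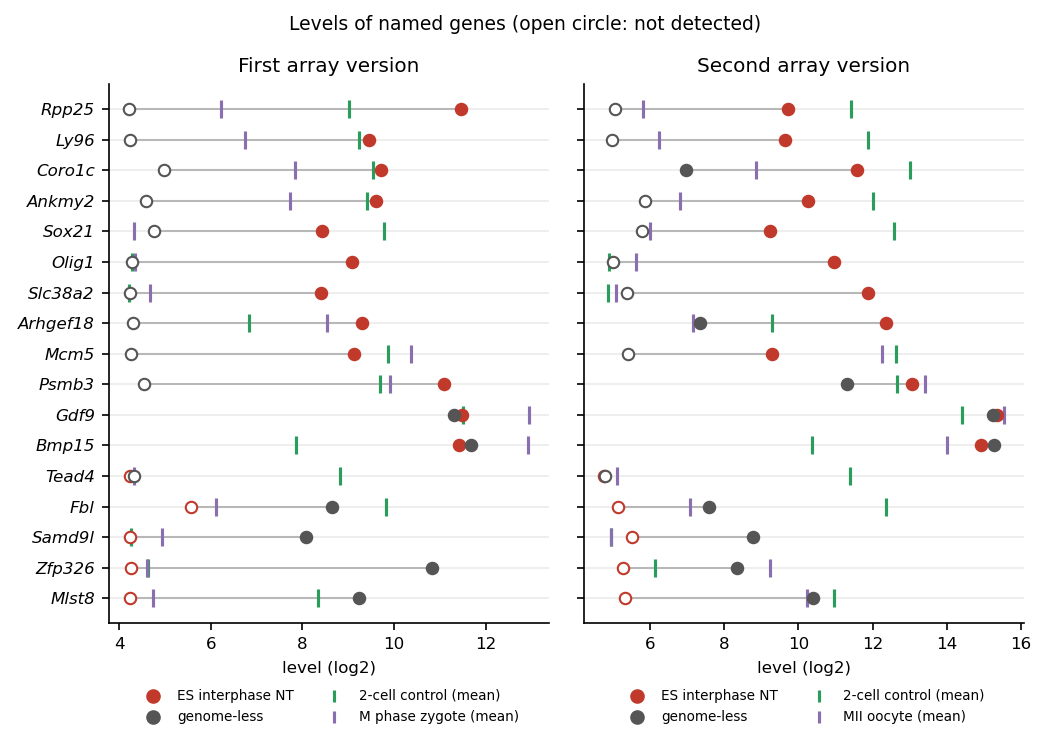
Level (log2) of named genes on each version in ES interphase NT and genome-less embryos (circles, open where not detected), with ticks at the means of 2-cell controls and of M phase zygotes or MII oocytes. Rpp25 to Psmb3 were higher in ES interphase NT on both versions, Gdf9 and Bmp15 nearly level, Tead4 undetected in both groups, and Fbl to Mlst8 lower.

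Among the gene lists, those of the mitochondrial respiratory chain and of translation initiation had high medians on both versions. Oxidative phosphorylation genes had a median difference of 1.14 log2 on the first version and 0.58 on the second, and 7 of 44 (15.9%, beside 3.61% of all genes) were higher on both, 2 lower and 3 opposite. The first-version median was 0.53 with 75th percentile scaling, below translation initiation (0.87) and ribosomal protein genes (0.86), and 0.11 with the pair of arrays normalized alone. In pairs of replicate arrays the list's median difference reached 0.74 on the first version and 0.38 on the second. More of these genes were detected to begin with, 26 of 44 in ES interphase NT on the first version beside 2923 of 8244 genes in all. The second version had 35 of 46 detected in ES interphase NT and 39 in genome-less embryos, 3 in ES interphase NT only and 7 in genome-less embryos only. Over genes detected on either array of a pair, with undetected values at the detection floor, their median was 1.20 log2 on the first version and 0.55 on the second, beside -0.19 and -0.013 for all such genes. Cox7a2, a subunit of cytochrome c oxidase, had 10.54 log2 in ES interphase NT and 6.15 in genome-less embryos on the first version, and 11.29 in ES interphase NT and 9.47 in genome-less embryos on the second. Cox6c, another subunit, was 1.97 and 1.70 log2 higher with all 4 arrays detecting it. Ndufa1, a subunit of complex I, was at least 10.9-fold higher on the first version and 2.52 log2 higher on the second. Its fellow complex I subunit Ndufs4 was lower, at 4.42 in ES interphase NT and 9.71 in genome-less embryos on the first version, and at 4.86 in ES interphase NT and 7.96 in genome-less embryos on the second. So the list was not of 1 direction.

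Translation initiation genes had medians of 0.67 and 0.59 log2, against at most 0.32 and 0.22 in pairs of replicate arrays, and the first-version median was 0.21 with the pair normalized alone. In this list, 5 of 24 (20.8%, beside 3.61% of all genes) were higher on both, 1 lower and 0 opposite. Eif6, which keeps the ribosomal subunits apart, had 10.41 log2 in ES interphase NT and 8.92 in genome-less embryos on the first version, and 12.97 in ES interphase NT and 10.07 in genome-less embryos on the second. Eif2s2, the beta subunit of the factor that brings the initiator tRNA, was 2.07 and 1.32 log2 higher. Eif5, which works on that same factor, was the lower member, at least 2.57-fold lower on the first version and with a difference of -2.05 log2 on the second. With the pair normalized alone its first-version difference was -0.46 log2, short of 2-fold.

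Ribosomal protein genes had medians of 0.53 and 0.28 log2, beside -0.016 and 0.021 for all genes and at most 0.85 and 0.44 in pairs of replicate arrays. Of 28 members, 2 (7.14%, beside 3.61% of all genes) were higher on both and none lower or opposite. Rpl39 had 11.22 log2 in ES interphase NT and 9.49 in genome-less embryos on the first version, and 11.83 in ES interphase NT and 9.56 in genome-less embryos on the second, all detected. The 2-cell controls had 12.09 and 15.12, so ES interphase NT stayed below them, and the M phase zygotes had 9.07 and the MII oocytes 10.72. Rps21 was 1.82 and 1.51 log2 higher. Ribosome biogenesis genes, many of which rise at genome activation, went both ways: 5 of 57 (8.77%, beside 3.61% of all genes) were higher on both, 5 (8.77%, beside 2.52%) lower and 2 opposite, with medians of 0.0085 and 0.062 log2. Utp4, of the small-subunit processome, was at least 8.09-fold and 5.32-fold higher. Fbl, the methyltransferase fibrillarin, was lower, at 5.56 in ES interphase NT and 8.66 in genome-less embryos on the first version, and 5.15 in ES interphase NT and 7.60 in genome-less embryos on the second. It was detected in neither ES interphase NT sample, and the 2-cell controls had 9.83 and 12.36. Fbl fell short of 2-fold on the first version with the pair normalized alone (-0.81 log2). It also did so on the second without background correction (-0.96 log2).

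The lists of pluripotency and of early activation gave few members that differed on both versions. Utf1, a chromatin protein of pluripotent cells and an ES cell marker, was the member of the ES and naive pluripotency list that was higher on both. That is 1 of 22 (4.55%, beside 3.61% of all genes), with 1 lower (4.55%, beside 2.52%) and 1 opposite. It had 6.66 log2 in ES interphase NT and 4.29 in genome-less embryos on the first version, and 6.73 in ES interphase NT and 4.91 in genome-less embryos on the second, at least 1.10-fold and 1.32-fold higher. The bounds are small because the Utf1 signal lay just above detection. The 2-cell controls also detected Utf1, with means of 5.36 on the first version and 7.35 on the second, so it is not particular to ES interphase NT. M phase zygotes had 4.81 and MII oocytes 4.97. Pou5f1 (Oct4), which egg and ES cell both express, had 11.62 in ES interphase NT and 11.94 in genome-less embryos on the second version and was detected on neither array of the first. Nanog was detected on none of the 4 arrays. Nr5a2, an orphan nuclear receptor, was the lower member, with 4.23 in ES interphase NT and 8.77 in genome-less embryos on the first version, and 10.15 in ES interphase NT and 11.63 in genome-less embryos on the second.

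Dppa4, a chromatin protein of pluripotent cells that belongs to the activation set, differed on the second version alone, with 10.10 log2 in ES interphase NT and 5.40 in genome-less embryos (at least 13.7-fold), against 15.33 in 2-cell controls and 4.88 in MII oocytes. Neither first-version array detected it. Klf5, a transcription factor of the early embryo, went the other way on the second version, with 5.40 in ES interphase NT and 8.64 in genome-less embryos (at least 5.55-fold lower). The 2-cell controls had 13.48 of Klf5 and the MII oocytes 6.40. Ncl, the nucleolar protein nucleolin, had 9.07 in ES interphase NT and 7.57 in genome-less embryos on the second version, against 12.48 in 2-cell controls and 5.28 in MII oocytes. Ccne1, cyclin E1, had 8.04 in ES interphase NT and 6.71 in genome-less embryos there, against 13.85 in 2-cell controls and 7.63 in MII oocytes. Eif1a, also of the activation set, was 0.82 log2 higher on the second version, short of the rule. Ncl, Ccne1 and Eif1a were not detected on the first version in these groups. Tead4, a transcription factor of the trophectoderm that rises at genome activation, was detected on none of the 4 arrays, whereas 2-cell controls had 8.81 and 11.38. Of the activation markers, then, Ncl, Ccne1 and Dppa4 were at least 2-fold higher in ES interphase NT on the second version, Eif1a less than 2-fold higher, Klf5 lower, and Tead4 undetected. Ccne1 in ES interphase NT was near its oocyte level.

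Transient genes of the 2-cell stage, 10 of which were measured on both versions, had 1 higher member (10%, beside 3.61% of all genes) and none lower or opposite. It was Tcstv3, with 10.95 log2 in ES interphase NT and 8.76 in genome-less embryos on the first version, and 11.62 in ES interphase NT and 9.70 in genome-less embryos on the second. M phase zygotes had 9.67 and MII oocytes 11.53, so on the second version ES interphase NT was at the oocyte level. All arrays of M phase zygotes, MII oocytes and genome-less embryos detected it, so here it was not confined to the 2-cell stage. Family members of Tcstv3 are near-identical in sequence and the probe may read several. Zfp352, also of the 2-cell stage, had 6.90 in ES interphase NT and 7.31 in genome-less embryos on the first version, and 5.17 in ES interphase NT and 7.84 in genome-less embryos on the second. Zscan4c and Zscan4d, Sox2 and Zfp42 did not enter the measured genes on either version. The early genome activation list had 2 of 27 members higher on both (7.41%, beside 3.61% of all genes), Sox21 and Pdha1 (of the pyruvate dehydrogenase complex). It had 1 lower (3.70%, beside 2.52%), Nr5a2, and 1 opposite.

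Oocyte markers were at similar levels with an ES genome and without one. Their summed linear level was 12677 in ES interphase NT and 14143 in genome-less embryos on the first version. All 7 measured markers were detected in both groups on the second version. On the first, ES interphase NT detected 6 and genome-less embryos 7 (Zp1 was the missing one). Gdf9, an oocyte growth factor, had 11.48 log2 in ES interphase NT and 11.30 in genome-less embryos on the first version, and 15.35 in ES interphase NT and 15.24 in genome-less embryos on the second. Bmp15, its partner, had 11.43 in ES interphase NT and 11.68 in genome-less embryos on the first version, and 14.92 in ES interphase NT and 15.26 in genome-less embryos on the second. The 2-cell controls had 7.87 and 10.37 of Bmp15, so this transcript, which normal embryos had largely lost by then, was still there in all 4 samples. Of Gdf9 they had 11.52 and 14.41, with 12.94 in M phase zygotes and 15.53 in MII oocytes. Both groups were thus near the 2-cell level of Gdf9 on the first version, and near its oocyte level on the second. The oocyte and maternal list had medians of 0.31 and 0.11 log2, with 2 of 41 higher on both (Tcl1 and Dazl), 0 lower and 3 opposite. The higher share was 4.88%, near the 3.61% of all genes. Dazl, an RNA-binding protein of germ cells, had 6.30 in ES interphase NT on the first version, below the lowest level detected on the genome-less array (6.53), and met the rule under 5 of 9 other normalizations and filters. Dppa3 (Stella), a maternal protein that guards methylation in the zygote, was 2.56 log2 higher on the first version and 0.99 on the second, just short of the rule. Gapdh likewise was 1.98 and 0.94 log2 higher.

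Few markers of other cells were detected on the short marker lists. Of the fibroblast or feeder cell markers, 1 of 7 measured (Acta2) was detected in ES interphase NT on the first version and 1 of 4 (Thy1) on the second, and none in genome-less embryos. The summed linear level of this list was 342 in ES interphase NT and 25.6 in genome-less embryos on the first version, and 145 in ES interphase NT and 109 in genome-less embryos on the second. Of the cumulus or granulosa cell markers, ES interphase NT detected 0 of 4 and genome-less embryos 1 (Has2) on the first version, and both detected 1 of 2 (Cyp11a1) on the second, with summed levels of 70.5 in ES interphase NT and 98.4 in genome-less embryos, then 103 in ES interphase NT and 112 in genome-less embryos. The ES cell markers numbered 5 measured on the first version, with Utf1 and Lin28a detected in ES interphase NT and Lin28a in genome-less embryos, and their summed level was 189 in ES interphase NT and 673 in genome-less embryos. On the second version 7 were measured, with 4 detected in ES interphase NT and 3 in genome-less embryos. Utf1, which 2-cell controls also detected, was the difference. The summed level was 5762 in ES interphase NT and 5107 in genome-less embryos. Longer lists held more detected genes. For fibroblast and feeder cells, ES interphase NT detected 5 of 22 and genome-less embryos 4 on the first version. The second version gave 5 of 13 and 4. For cumulus and granulosa cells, ES interphase NT detected 2 of 10 and genome-less embryos 4 on the first version. The second version gave 2 of 4 and 3. The part of other cells in the differences was not tested.

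Of the genes lower in ES interphase NT on both versions, Mlst8 had the largest smaller difference. Fewer lower than higher genes lay far apart: 37 of 166 lower genes passed 2 log2 on both versions, against 77 of 238 higher genes. Mlst8, a subunit of both mTOR complexes, had 4.24 log2 in ES interphase NT and 9.23 in genome-less embryos on the first version, and 5.31 in ES interphase NT and 10.38 in genome-less embryos on the second. It was at least 7.90-fold and 18.5-fold lower, against 4.73 in M phase zygotes and 10.24 in MII oocytes. Leprotl1, a membrane protein related to the leptin receptor overlapping transcript, had 4.28 in ES interphase NT and 10.05 in genome-less embryos on the first version, and 8.54 in ES interphase NT and 12.35 in genome-less embryos on the second. Zfp326, a zinc finger protein, had 4.25 in ES interphase NT and 10.84 in genome-less embryos on the first version, and 5.28 in ES interphase NT and 8.35 in genome-less embryos on the second, at least 24.0-fold and 4.52-fold lower.

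Some of the lower genes stood above the unactivated stage in embryos that had no genome. Samd9l, an interferon-inducible gene that was at least 3.53-fold and 6.13-fold lower in ES interphase NT, had 4.22 log2 in ES interphase NT and 8.07 in genome-less embryos on the first version, against 4.24 in 2-cell controls and 4.92 in M phase zygotes. On the second version it had 5.52 in ES interphase NT and 8.79 in genome-less embryos, against 4.94 in 2-cell controls and 4.93 in MII oocytes. The uncharacterized 5031410I06Rik had 4.21 in ES interphase NT and 9.57 in genome-less embryos on the first version, and 5.20 in ES interphase NT and 8.84 in genome-less embryos on the second, against 4.38 in M phase zygotes and 6.09 in MII oocytes. Efr3a, which anchors a lipid kinase at the plasma membrane, was at least 5.34-fold lower on the first version and differed by -2.57 log2 on the second. The remaining genes of the 15 lowest were Qrfprl, Mtres1 (a mitochondrial transcription factor), Ndufs4, Pgap2 (of GPI anchor remodelling), Cit (citron kinase), Crk (an adaptor protein), Hint2, Rrp1b and Slc2a3 (the glucose transporter GLUT3). Pgap2 and Ndufs4 were read by different probes on each version. With the same probe on both, the first-version difference of Pgap2 was -0.39 log2, short of the rule, and Ndufs4 kept its call. With undetected values taken as measured, the smaller difference of these remaining genes ran from -3.72 in Qrfprl to -2.49 in Slc2a3. Several lower genes fell short of 2-fold on the first version with the pair of arrays normalized alone. The differences were then -0.62 log2 for Samd9l, -0.77 for Efr3a, -0.87 for Hint2, -0.53 for Rrp1b, -0.50 for Crk, -0.37 for Slc2a3 and -0.32 for Cit.

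**Figure D4:**
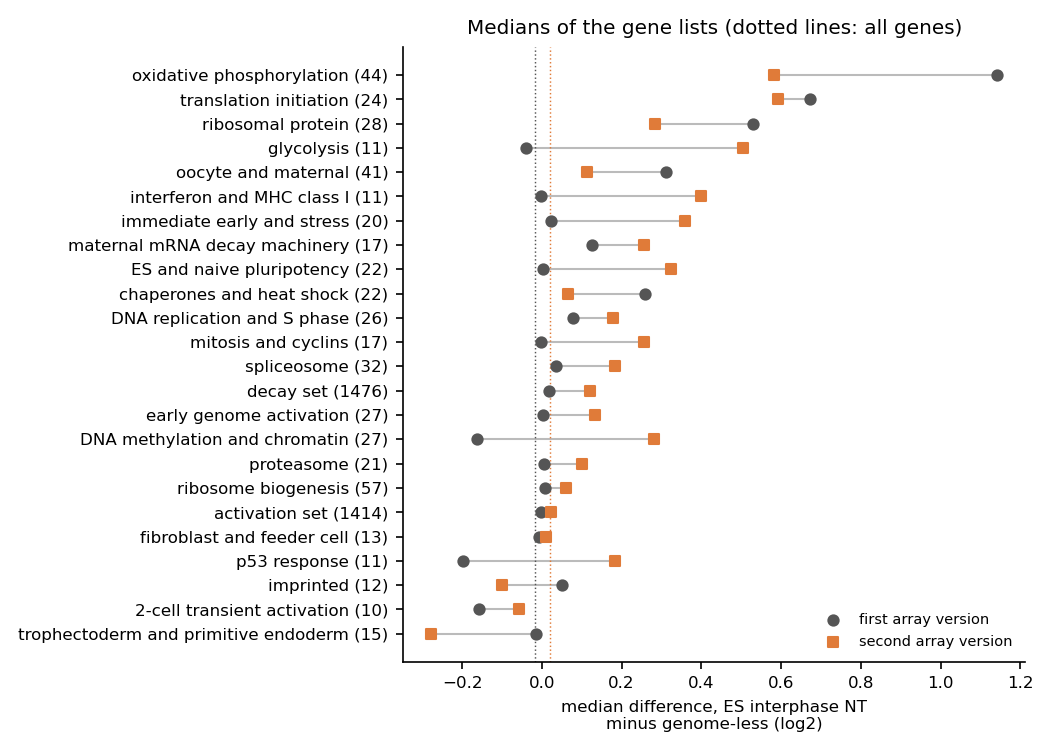
Median difference, ES interphase NT minus genome-less (log2), of each gene list with 10 or more members measured on both versions (number in brackets), on the first (circles) and the second version (squares). Oxidative phosphorylation (1.14 and 0.58) and translation initiation (0.67 and 0.59) lie farthest right, and the activation set sits on the dotted lines for all genes.

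The other lists had 0 to 2 members that kept a direction, beside 3.61% higher and 2.52% lower of all genes. The higher members were Psmb3 (proteasome, 1 of 21), Snrpb and Lsm7 (spliceosome, 2 of 32), Irf1 and Ifitm2 (interferon and MHC class I, 2 of 11), Mcm5 (DNA replication, 1 of 26), Zfp36l1 (maternal mRNA decay machinery, 1 of 17) and Trim28 (DNA methylation and chromatin, 1 of 27). The lower members were Slc2a3 (glycolysis, 1 of 11), Cct4 (chaperones, 1 of 22) and Cldn4 (trophectoderm and primitive endoderm, 1 of 15). The lists for mitosis and cyclins (17 genes), p53 response (11), immediate early and stress genes (20), imprinted genes (12), fibroblast and feeder cells (13) and cumulus and granulosa cells (3) had none in either direction. Of Psmb3, a subunit of the proteasome core, ES interphase NT had 11.10 log2 and genome-less embryos 4.54 on the first version, and ES interphase NT had 13.06 and genome-less embryos 11.30 on the second. Irf1, an interferon-regulated transcription factor, and Ifitm2, an interferon-induced membrane protein, lay near the limit of detection in ES interphase NT on the first version. There Irf1 had 6.35 in ES interphase NT and 4.21 in genome-less embryos, below the lowest detected level of the genome-less array (6.53), so no fold is given, and Ifitm2 was at least 1.22-fold higher. Both failed the rule with the pair normalized alone (0.21 and 0.29 log2). Snrpb, a core protein of the spliceosome, was at least 4.76-fold higher on the first version and 1.91-fold on the second. With the pair normalized alone its first-version difference was 0.98 log2, just short of the rule.

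How far these differences exceed replicate spread could be gauged only by assuming that the lone samples vary like the replicated groups of their version. Under that assumption limma, with Benjamini-Hochberg adjustment over all genes, called 68 of 6592 genes (1.03%) higher and 27 (0.410%) lower on both versions, with 10 and 5 residual degrees of freedom. The median replicate SD was 0.35 log2 on the first version and 0.45 on the second. Of the 404 genes that met the fold rule on both versions, 84 passed on both. In 96 of the 404, 69 of them higher and 27 lower, the sample with the lower level did not detect the gene on either version, so only a bound on the difference was measured there.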

How the data were processed

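Average bead intensities, 1 for each probe and array, were deposited without normalization between arrays, per the file headers. They came from GenomeStudio, per the submitters' processing notes. The GenomeStudio version was not given. The deposited tables also gave each probe's detection p-value on each array. The authors' series matrix held intensities that were straight-line transforms of these columns, with 1 exception outside the compared groups (r = 0.996), and served as an alternative. RNA came from a PicoPure kit and was amplified with a biotin label, per the labels' protocols.

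Normalization was done separately for each version by the neqc function (limma 3.58.1, R 4.3.3), that is normexp with negative controls inferred from detection p-values, an offset of 16, quantile normalization and log2. Probes had to be detected (p below 0.05) on at least 2 arrays of their version. They were named from the platform annotation updated through RefSeq (14890 of 14898 and 15043 of 15052 probes with 1 symbol matched), and the brightest probe of a gene was used. Of the 404 genes that met the rule, 389 were read by the same probe on both versions. A gene met the rule where ES interphase NT minus genome-less was at least 1 log2 in the same direction on both versions and the brighter array detected it. Limma's group-means fits left out repeat hybridizations on the first version and averaged blastomere NT arrays 1 and 3 as 1 sample. The call rule and the fits were tested on simulated data. Groups followed the labels. The number of arrays limits the precision of every value.

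Named genes were the 15 highest and the 15 lowest by the smaller difference of the pair of versions, up to 4 genes per list, up to 6 per set, and a fixed list of markers with or without a call. Genes above the unactivated stage and the lists' further members were named after their values were seen. The members and the gene lists were chosen with earlier results of these data known. The alternatives tried were other normalizations, filters, probe rules, fold thresholds and set definitions, and leaving out each version's pair.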

Additional observations from a re-analysis of the deposited data

How the results depend on the processing

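The counts of 238 higher and 166 lower genes depended on the processing. Without background correction 157 were higher and 109 lower. With each pair of arrays normalized alone, an alternative chosen after seeing the data, 118 were higher and 99 lower. At a difference of at least 2 log2 in each table, 77 were higher and 37 lower. By limma's adjusted p with pooled spread in each table, 68 were higher and 27 lower, and their total of 95 became 53 with 75th percentile scaling. With either pair left out, which leaves 1 version alone and no agreement to ask for, the counts lay between 996 and 1194 higher and between 777 and 1073 lower. With series matrix values 333 were higher and 146 lower, and with undetected values at the detection floor, also chosen after seeing the data, 168 were higher and 129 lower. Under all 9 alternatives of normalization or filter, 75 of the higher and 51 of the lower genes kept their call. Of the 58 named genes that met the rule, 27 did so under all 9. On the second version the activation median was -0.13 with 75th percentile scaling, and the decay median was 0.011 with 75th percentile scaling, 0.29 with series matrix values, 0.22 with sets at 2 log2 and -0.042 with sets from 4-cell control minus MII oocyte. Their other medians moved by less than those of replicate pairs. With the array version as replicate block, added after seeing the data, limma on the within-version differences (1 residual degree of freedom) called 0 genes at adjusted p, with 136 higher and 102 lower at an unadjusted p below 0.05. The dim signal of the first version limits what could be detected there.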
